A study of Sus scrofa with 12 samples.

Results

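The genes described here encode the peptide hormones that Sertoli cells release, the receptors that bind them, and the receptor through which Sertoli cells receive FSH. They are AMH and its receptor AMHR2, the inhibin and activin subunits INHA, INHBA and INHBB, the activin receptors ACVR1B, ACVR2A and ACVR2B, the activin-binding protein FST, and FSHR. Rows were taken from the deposited coding-gene table by these 10 symbols, which gave 11 of 21674 rows, because INHBA has 2 rows.

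Sertoli cells are the somatic cells of the seminiferous tubule that surround and feed the germ cells. Before puberty they secrete AMH, which acts through AMHR2 and makes the Müllerian ducts of the male fetus regress. The subunit made by INHA joins a beta subunit, made by INHBA or INHBB, to form inhibin, which lowers FSH release from the pituitary. Beta subunits joined to each other form activins, which raise FSH release, signal through ACVR2A or ACVR2B together with ACVR1B, and are bound and held inactive by FST.

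Testis RNA was sequenced from Hezuo (HZ) and Landrace (LC) boars that were castrated at 30 or 120 days of age. Ha were HZ boars of 30 days and Hb of 120 days, and La were LC boars of 30 days and Lb of 120 days. Each group had 3 boars as biological replicates, 12 libraries in all, and all boars came from a single breeding company, were kept alike, and shared a genetic background within each breed. The comparisons ask how these genes change with age in each breed and how the breeds differ at each age. The sum of the estimated mRNA counts ran from 17165519 in Hb3 to 23758931 in Ha1. Levels are given as CPM, the count of a gene relative to all mRNA counts of its library after TMM scaling of the 12 libraries. A gene was called at an adjusted p under 0.05 in edgeR's quasi-likelihood test and an absolute log2 fold change over 1. In Ha vs Hb and the other pairs, the fold change is that of the second group relative to the first, given ± SE with n = 3 boars in each group.

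The labelled tissue was checked against markers of testis cells. All 5 Sertoli markers had counts (SOX9, WT1, GATA4, CLDN11 and DHH, with CLDN11 the most abundant at a mean of 218 CPM), and so did all 7 Leydig markers and all 10 spermatid markers. Hb1 differed from Hb2 and Hb3 in the sums of some markers. The Leydig markers summed to 4066 CPM in Hb1 and to 331 and 268 CPM in Hb2 and Hb3, the peritubular and stromal markers to 608, 354 and 255 CPM, and the Sertoli markers to 258, 367 and 312 CPM. AMH, AMHR2 and FSHR were each at their lowest of the Hb libraries in Hb1. Over all mRNAs it was Hb2 that lay farther from the others, with a first principal component of -147.7 against -181.0 in Hb1 and -176.5 in Hb3. Counts and fold changes were also computed without each library in turn.

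With age in HZ boars, 10 of the 11 rows could be tested and 6 were called in Ha vs Hb, all of them lower in Hb. Over all 16548 mRNAs tested, 51.4% were called in either direction and 23.2% were called lower in Hb. With age in LC boars, all 11 rows were tested and 7 were called in La vs Lb, again all lower at 120 days. Over all 16637 mRNAs tested there, 47.6% were called in either direction and 20.1% were called lower in Lb. The reference row of INHBA, described below, is among the rows called in both age comparisons. Between the breeds at 30 days, 4 of 11 rows were called in Ha vs La, all higher in LC boars, where 7.62% of 15648 mRNAs were called in either direction and 3.6% were called higher. Between the breeds at 120 days, 9 rows were tested and 0 were called in Hb vs Lb by edgeR, by DESeq2 and by limma on log2(FPKM + 1), against 3.85% of 16311 mRNAs called by edgeR. At an unadjusted p under 0.05, 2 of those 9 rows passed, INHBA and INHBB. The median log2 fold change of the rows tested was -1.76 from Ha to Hb, where it was -0.02 over all mRNAs tested, and -1.62 from La to Lb, where it was 0.01. Between breeds it was 0.40 at 30 days and 0.22 at 120 days, where those over all mRNAs were 0.002 and 0.0044. Comparisons with a group in common share its 3 libraries. Overlap of libraries is described gene by gene below, and the share of all mRNAs without overlap was not computed.

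**Figure D1:**
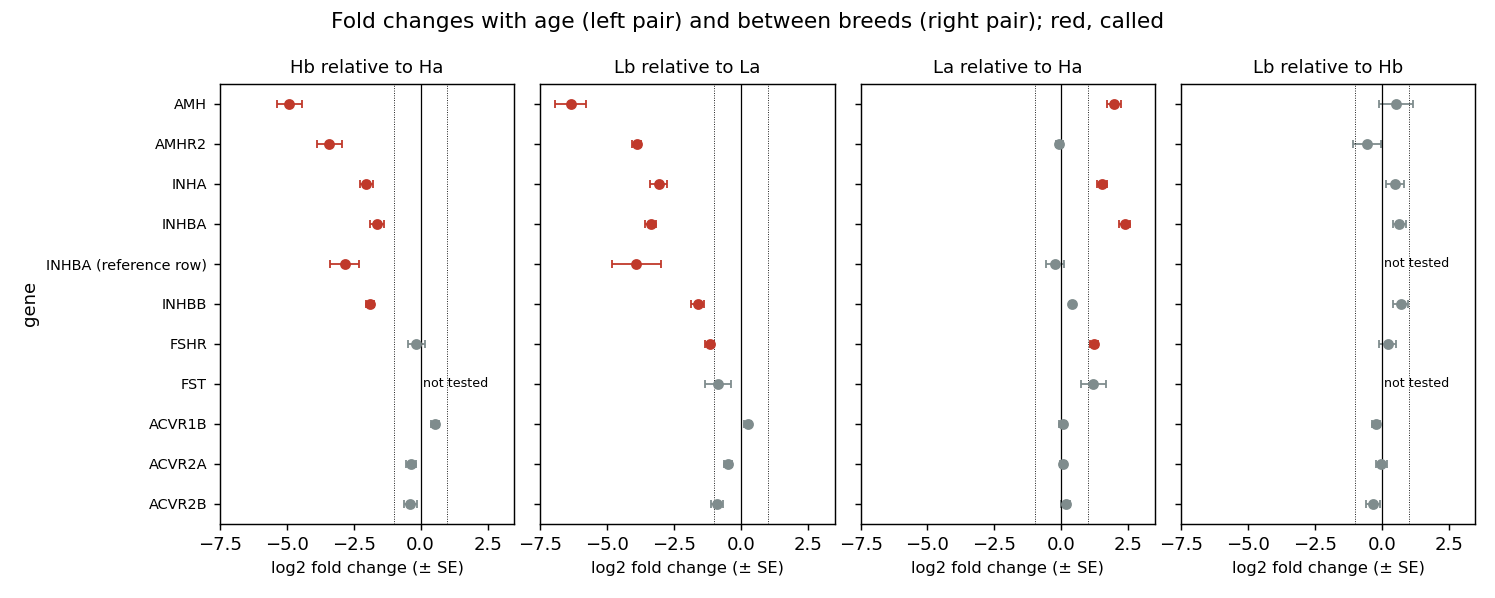
Log2 fold changes (points) with SE (bars, n = 3 boars per group) of the 11 rows in the 4 comparisons, the second group relative to the first. Red points were called and grey points were not, and dotted lines mark a log2 fold change of 1 in either direction; the points called lie to the left of 0 with age and to the right of 0 in La relative to Ha, where they are AMH, INHA, INHBA and FSHR.

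AMH (ncbi_397578, chromosome 2 from 76415564 to 76418315 of Sscrofa11.1) fell more with age than any other of these rows in both breeds, except that without Lb2 the reference row of INHBA had 0 counts in Lb and cannot be ranked. In Ha its level was 131, 133 and 263 CPM, and in Hb it was 2.90, 8.13 and 6.53 CPM. In La it was 569, 796 and 695 CPM, and in Lb it was 2.54, 7.15 and 15.2 CPM. No library of 30 days overlapped one of 120 days, and within Ha the replicate Ha3 was well above the others. The log2 fold change was -4.91 ± 0.47 in Ha vs Hb (edgeR adjusted p = 9.21e-05), a level 30.0 times lower, and -6.35 ± 0.58 from La to Lb (adjusted p = 2.31e-05), a level 81.8 times lower. Without Lb3, the highest Lb library, that change was -7.14, with adjusted p between 3.97e-21 and 0.00021 over the alternatives. Bulk RNA cannot tell fewer Sertoli cells among the cells of the tissue from less RNA per Sertoli cell, here or in the results that follow. It also does not show which cell type the RNA of a gene came from.

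At 30 days all 3 La libraries lay above all 3 Ha libraries for AMH. The difference between the breeds was 1.96 ± 0.28 on the log2 scale (edgeR adjusted p = 0.00351), a level 3.90 times higher in LC boars. At 120 days the Hb and Lb libraries overlapped, and the log2 fold change of 0.54 ± 0.64 was not called (adjusted p = 0.624). The sign of that value turned without Lb3, to -0.25. The change with age differed between the breeds by -1.48 ± 0.73 (LC minus HZ, log2), which did not pass the test of interaction (edgeR adjusted p = 0.245), so the larger fall in LC boars was not shown to differ from that in HZ boars. That difference ran from -2.23 to -1.03 over the alternatives and was called in none of them.

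INHA (ncbi_397386, chromosome 15 from 121581847 to 121586020), the alpha subunit of inhibin, had the highest level of all 10 genes per length in each group. Its CPM was 482, 390 and 660 in Ha and 121, 152 and 105 in Hb. It was 1293, 1637 and 1435 CPM in La and 125, 275 and 115 CPM in Lb. The ages did not overlap in either breed, and Lb2 was well above the other Lb libraries. INHA changed by -2.02 ± 0.23 in Ha vs Hb (edgeR adjusted p = 0.000226) and by -3.07 ± 0.33 from La to Lb (adjusted p = 5.86e-05), on the log2 scale.

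For INHA the lowest La library (1293 CPM) lay above the highest Ha library (660 CPM). The difference between breeds at 30 days was 1.51 ± 0.19 on the log2 scale (edgeR adjusted p = 0.00235), a level 2.85 times higher in LC boars. At 120 days the log2 fold change was 0.48 ± 0.34, the libraries overlapped and the gene was not called (adjusted p = 0.398). Without Lb2 it was -0.022. The change of INHA with age differed between breeds by -1.07 ± 0.43 on the log2 scale, which was not called (adjusted p = 0.16), while without Lb2 the difference was -1.58 and was called (adjusted p = 0.0224, range over the alternatives 0.0224 to 0.306). It was also called when the libraries were scaled to Sertoli markers, at -1.60. That scaling moved the median over all mRNAs in the interaction from 0.02 to -0.52, so this call is no separate support.

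INHBA, the beta A subunit, has a row from the authors' assembly (MSTRG.23658), with no position in the tables used here, and a row of the reference annotation (ncbi_397093). The lncRNA that the study lists as a neighbour of the assembled row lies on chromosome 18, while the reference row lies on chromosome 12. The rows share a symbol and were not shown to be the same locus. The assembled row holds nearly all of the counts, and INHBA below means this row. Its level was 51.1, 53.2 and 78.3 CPM in Ha and 23.5, 14.4 and 21.2 CPM in Hb. It was 260, 325 and 352 CPM in La and 34.6, 22.7 and 32.3 CPM in Lb. The La libraries stood far above all 9 other libraries, and the groups of 120 days overlapped with each other. INHBA changed by -1.63 ± 0.25 in Ha vs Hb (edgeR adjusted p = 0.000986) and by -3.37 ± 0.20 from La to Lb (adjusted p = 1.77e-06), on the log2 scale.

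At 30 days INHBA had the largest breed difference of the 11 rows, 2.36 ± 0.19 on the log2 scale (edgeR adjusted p = 0.000531), a level 5.13 times higher in LC boars. At 120 days the log2 fold change between breeds was 0.65 ± 0.24 and was not called (adjusted p = 0.144). Of the 11 rows, 1 was called in the test of interaction, INHBA, against 5.14% of 17332 mRNAs in either direction. Its change with age was lower by -1.76 ± 0.33 (log2) in LC than in HZ boars (edgeR adjusted p = 0.0124), and it was called in all 21 alternatives, with adjusted p from 2.71e-05 to 0.0388.

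The reference row of INHBA (ncbi_397093, chromosome 12 from 53115379 to 53117128, with a biotype other than protein coding) held 1.18% of the counts of both rows. Its CPM was 1.53, 2.77 and 2.80 in Ha, 0.464, 0.371 and 0.132 in Hb, 2.29, 1.46 and 2.27 in La, and 0, 0.377 and 0 in Lb. It was called lower with age in both breeds, at -2.83 ± 0.53 in Ha vs Hb (edgeR adjusted p = 0.00243) and -3.91 ± 0.92 from La to Lb (adjusted p = 0.00494) on the log2 scale. The last value was -3.32 without Lb1. Without Lb2 both Lb libraries left had 0 counts, so the fitted value of -8.46 gives no size. Both calls were lost with limma on log2(FPKM + 1), filtered or not, at -0.93 and -0.89 on the log2 scale. Unlike the assembled row it did not differ between Ha and La, with overlapping libraries and a log2 fold change of -0.24 ± 0.33 (adjusted p = 0.65). Estimated counts were not whole (to a tolerance of 0.005) in 9 of 12 libraries for this row, in all 12 for AMH, INHBB, FSHR and ACVR2B, in 10 for AMHR2, in 6 for INHA, and in 0 for the assembled INHBA row, FST, ACVR1B and ACVR2A.

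INHBB (ncbi_397490, chromosome 15 from 30999994 to 31004405), the beta B subunit, fell with age to a similar degree in both breeds. It was 37.6, 38.6 and 38.2 CPM in Ha, 10.2, 10.96 and 9.50 CPM in Hb, 48.1, 53.8 and 49.0 CPM in La, and 22.9, 13.6 and 12.0 CPM in Lb. The ages did not overlap within a breed, and the LC libraries lay above the HZ libraries at each age. The log2 fold change was -1.90 ± 0.14 in Ha vs Hb (edgeR adjusted p = 3.16e-05) and -1.62 ± 0.23 from La to Lb (adjusted p = 0.000322). The breed differences were 0.40 ± 0.09 in Ha vs La (adjusted p = 0.0184, under the threshold on fold), small beside that of INHBA, and 0.70 ± 0.27 between Hb and Lb (adjusted p = 0.162), close to that of INHBA, and neither was called.

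**Figure D2:**
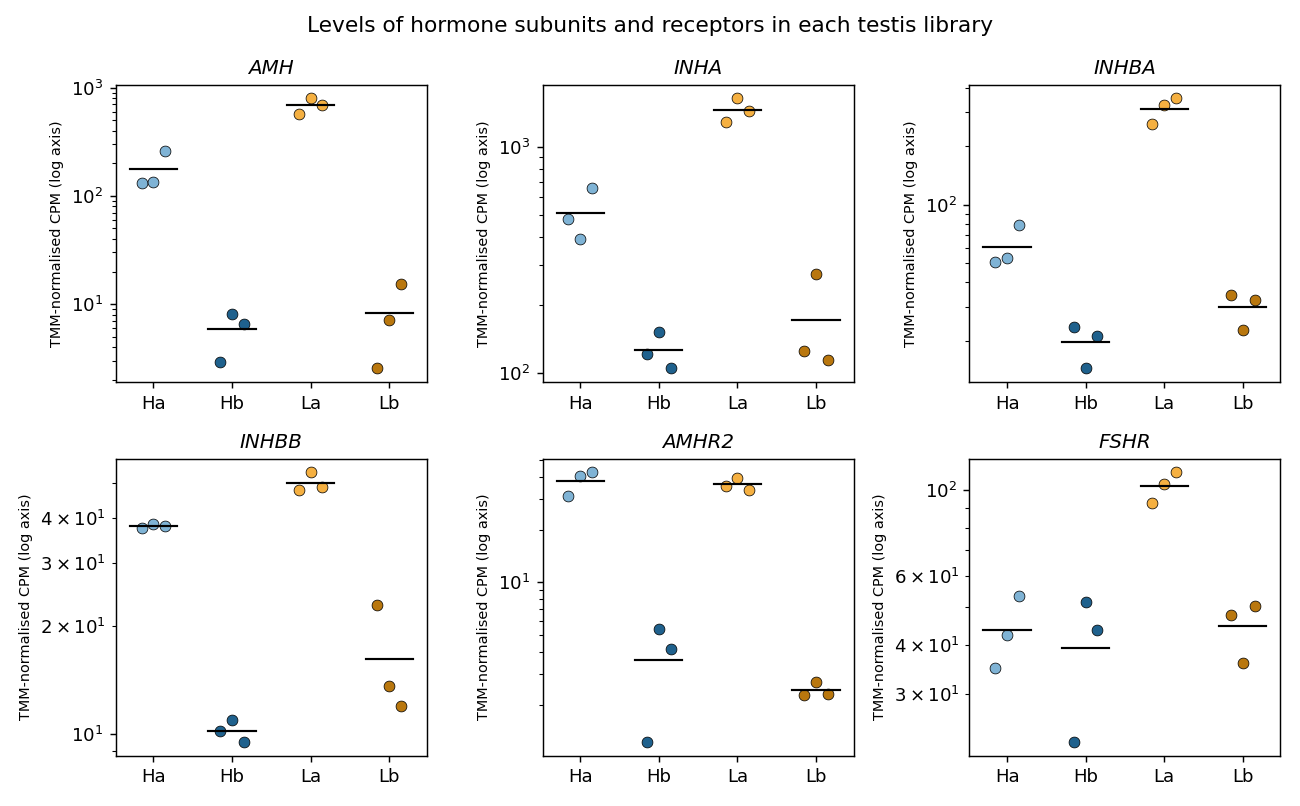
Level of 6 genes in each library, in TMM-normalised CPM on a log axis, with a point for each of the 3 boars of a group and a line at the group mean. AMH, INHA, INHBA, INHBB and AMHR2 are lower at 120 days (Hb, Lb) than at 30 days (Ha, La) with no overlap within a breed, and for FSHR the La libraries (92.6 to 111 CPM) lie above all others. The share of all mRNAs without overlap was not computed.

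The ratio of the beta subunits differed in La from the other groups. Per length, in FPKM, INHBA was 6.33, 6.62 and 9.67 in Ha against 16.2, 16.8 and 16.4 for INHBB, and 31.1, 39.4 and 43.1 in La against 20.1, 22.7 and 20.9 for INHBB. The level of INHBA over that of INHBB in FPKM ran from 1.55 to 2.06 in La, from 0.39 to 0.589 in Ha, from 0.377 to 0.662 in Hb and from 0.432 to 0.772 in Lb. INHBA thus exceeded INHBB per length in all 3 La libraries and in none of the 9 others. INHA exceeded the sum of the beta subunits in FPKM in every library, with a mean ratio of 12.9 ± 2.61 in Ha, 11.52 ± 2.57 in Hb, 15.1 ± 1.18 in La and 11.12 ± 7.61 in Lb (SD, n = 3), which did not separate the groups. Without Lb2 the mean in Lb was 6.78. The FPKM of the assembled INHBA row rests on an implied length of 6819 nt, and that of INHBB on 1958 nt, so the ratio depends on how complete those transcripts are.

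AMHR2 (ncbi_100154297, chromosome 5 from 18642212 to 18648859), the receptor that binds AMH, fell with age and did not follow AMH between breeds. It was 31.2, 40.7 and 42.8 CPM in Ha and 35.8, 39.6 and 33.7 CPM in La, and these groups overlapped. At 120 days it was 1.22, 5.43 and 4.15 CPM in Hb and 2.27, 2.68 and 2.31 CPM in Lb, below every library of 30 days. The log2 fold change was -3.40 ± 0.48 in Ha vs Hb (edgeR adjusted p = 0.000585) and -3.89 ± 0.17 from La to Lb (adjusted p = 2.78e-07). Between the breeds it was -0.07 ± 0.14 at 30 days (adjusted p = 0.732) and -0.55 ± 0.53 at 120 days (adjusted p = 0.548). The value at 120 days ran from -1.12 to -0.087 over the alternatives and was called in none of them. The level of AMH over that of AMHR2 in FPKM was 4.71 ± 1.55 in Ha, 2.26 ± 0.925 in Hb, 20.2 ± 2.67 in La and 4.26 ± 2.97 in Lb (SD, n = 3), and the La libraries did not overlap with any other group. Without Lb3 the mean ratio in Lb was 2.70.

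**Figure D3:**
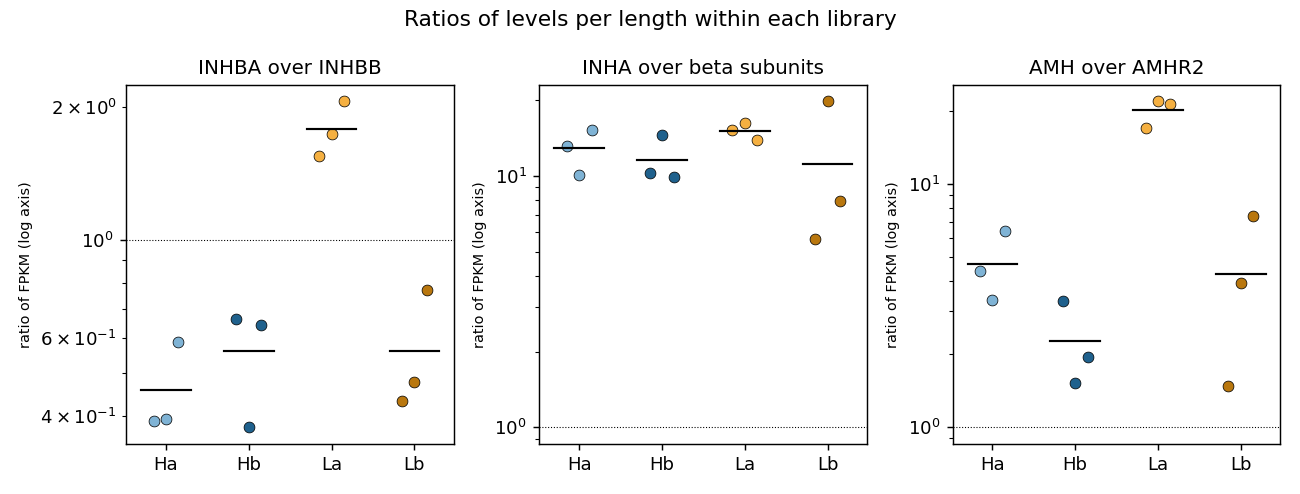
Ratios of levels per length (FPKM, log axis) within each library for INHBA over INHBB, for INHA over the sum of both INHBA rows and INHBB, and for AMH over AMHR2, with a point for each of the 3 boars of a group and a line at the group mean. The dotted line marks a ratio of 1; the La libraries lie above it for INHBA over INHBB (1.55 to 2.06) and all 9 other libraries lie under it.

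ACVR1B (ncbi_100152462, chromosome 5 from 17314322 to 17350726), the type I receptor, ran from 34.6 to 43.6 CPM in Ha, from 49.9 to 64.0 in Hb, from 36.5 to 45.3 in La and from 45.9 to 52.9 in Lb. Its libraries of 120 days lay above those of 30 days in each breed, by 0.54 ± 0.16 on the log2 scale in Ha vs Hb (edgeR adjusted p = 0.0171) and 0.25 ± 0.13 from La to Lb (adjusted p = 0.128), under the threshold on fold. ACVR2A (ncbi_397282, chromosome 15 from 4177333 to 4259056), a type II receptor, lay between 10.8 and 18.3 CPM in all 12 libraries, with log2 fold changes of -0.36 ± 0.18 in Ha vs Hb (adjusted p = 0.105) and -0.48 ± 0.16 from La to Lb (adjusted p = 0.0264), which were not called.

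ACVR2B (ncbi_448845, chromosome 13 from 23237699 to 23276086), the other type II receptor, was 46.0, 33.6 and 57.7 CPM in Ha, 28.6, 41.6 and 35.5 in Hb, 53.4, 53.0 and 47.2 in La, and 19.8, 25.7 and 36.5 in Lb. The ages overlapped in HZ boars and did not in LC boars. The log2 fold change was -0.38 ± 0.23 in Ha vs Hb (edgeR adjusted p = 0.179) and -0.88 ± 0.22 from La to Lb (adjusted p = 0.00656), which missed the threshold on fold. Without Lb3 it was -1.16 and was called (adjusted p = 0.00064), as it was by limma on log2(FPKM + 1) at -1.21, over a range of adjusted p from 0.000196 to 0.274. With limma on log2(FPKM + 0.1) it was called in both breeds, at -1.09 in Ha vs Hb and -1.37 from La to Lb. The interaction of -0.53 was not called (edgeR adjusted p = 0.373), while scaled to Sertoli markers it was -1.05 and was called. That scaling moved the median over all mRNAs in the interaction to -0.52, so this call is no separate support. Between breeds the receptors ACVR1B, ACVR2A and ACVR2B had log2 fold changes between -0.32 and 0.16 at the 2 ages, and none was called by edgeR.

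FST (ncbi_445002, chromosome 16 from 32806341 to 32811382), which binds activin, was close to the limit of these libraries. It had between 1 and 31 counts in each library, and its level was 0.269, 0.361 and 0.544 CPM in Ha, 0.058, 0.371 and 0.132 in Hb, 0.552, 0.904 and 1.23 in La, and 0.278, 0.612 and 0.565 in Lb. It could not be tested in Ha vs Hb or Hb vs Lb after the filter on low counts. The La libraries lay above the Ha libraries, but the log2 fold change of 1.19 ± 0.46 was not called (edgeR adjusted p = 0.107), and neither was that of -0.87 ± 0.49 in La vs Lb (adjusted p = 0.14).

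FSHR (ncbi_397679, chromosome 3 from 91607236 to 91775255) changed with age in LC boars and had no called change in HZ boars. It was 35.0, 42.5 and 53.6 CPM in Ha and 22.6, 51.5 and 43.7 CPM in Hb, and these libraries overlapped. It was 92.6, 103 and 111 CPM in La and 47.8, 36.0 and 50.5 CPM in Lb, with no overlap. The log2 fold change was -0.16 ± 0.31 in Ha vs Hb (edgeR adjusted p = 0.665), and 0.13 without Hb1 and 0.01 without Ha3. In La vs Lb it was -1.17 ± 0.16 (adjusted p = 0.000207).

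At 30 days FSHR was 2.34 times higher in LC than in HZ boars, with a log2 fold change of 1.22 ± 0.15 (edgeR adjusted p = 0.00246). At 120 days the breeds overlapped, with a log2 fold change of 0.22 ± 0.31 (adjusted p = 0.685) that turned to -0.064 without Hb1. The difference in the change with age was -1.04 ± 0.37 (LC minus HZ, log2), which was not called (edgeR adjusted p = 0.111). It was called by DESeq2 at -1.07 (adjusted p = 0.041) and without Hb1 at -1.29 (edgeR adjusted p = 0.0201), over a range from 0.0131 to 0.277 in the alternatives. Scaled to Sertoli markers it was -1.55 and was called, while the median over all mRNAs moved to -0.52, so this call is no separate support.

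In FPKM, which allows levels of different genes to be compared, INHA led in every group with 325 ± 86.2 in Ha, 57.6 ± 14.6 in Hb, 906 ± 110 in La and 86.0 ± 41.9 in Lb (SD, n = 3). AMH came next at 30 days, with 81.3 ± 34.5 FPKM in Ha and 311 ± 52.8 in La, and its libraries did not overlap with those of the genes on either side. In Ha, AMHR2 (17.1 FPKM), INHBB (16.5) and FSHR (15.1) followed with overlapping ranges, while in La the next were INHBA (37.9) and FSHR (34.0), which overlapped, and then INHBB (21.2). At 120 days AMH had dropped to the seventh place, with 1.97 ± 1.01 FPKM in Hb and 3.14 ± 2.60 in Lb, and ACVR1B and FSHR stood directly below INHA. The range of AMH overlapped those of the genes directly above and below it in both groups, so its exact place is not settled. ACVR1B was at 12.4 FPKM in Hb and 11.8 in Lb, FSHR was at 9.47 and 12.1, and their ranges overlapped in both groups. FST and the reference row of INHBA were the lowest rows in every group.

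Markers of Sertoli cells and of other cell types moved with age. The 5 Sertoli markers summed to 621, 644 and 688 CPM in Ha, 258, 367 and 312 in Hb, 687, 677 and 674 in La, and 429, 435 and 460 in Lb. Of these 5, GATA4 and DHH were called lower in Ha vs Hb and GATA4 was called lower from La to Lb, with medians over the list of -0.85 and -0.38 on the log2 scale. At 30 days they did not separate the breeds: 0 of 5 were called in Ha vs La by edgeR, DESeq2 and limma on log2(FPKM + 1), 1 passed an unadjusted p under 0.05, and the log2 fold changes lay between -0.19 and 0.41. At 120 days 0 of 5 were called by edgeR, 1 by DESeq2 and 0 by limma, and 3 passed an unadjusted p under 0.05. The sum of 8 spermatocyte markers, led by PIWIL1, was 31.7, 35.6 and 19.9 CPM in Ha, 783, 676 and 651 in Hb, 16.1, 14.1 and 12.7 in La, and 502, 485 and 494 in Lb. That of 10 spermatid markers, led by PRM1, was 4.99, 5.54 and 6.48 CPM in Ha, 6524, 5789 and 8232 in Hb, 8.87, 7.74 and 4.41 in La, and 4193, 3452 and 3154 in Lb.

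The sums of most other lists were lower at 120 days. The 7 Leydig markers, led by CYP17A1, summed to 10086, 9586 and 8750 CPM in Ha, 4066, 331 and 268 in Hb, 13676, 9326 and 11211 in La, and 4922, 7417 and 3086 in Lb. The 10 peritubular and stromal markers, led by COL3A1, summed to 4731, 4587 and 4509 CPM in Ha, 608, 354 and 255 in Hb, 6908, 6180 and 7613 in La, and 3084, 3007 and 2571 in Lb. Of these 10, 8 were called lower in Ha vs Hb, while from La to Lb 5 were called lower and 1 higher, ACTA2 at 1.42 on the log2 scale. Endothelial (5 markers, led by VWF), macrophage (5, led by CSF1R) and blood markers (2, led by HBB) had lower mean sums at 120 days in both breeds, of 655, 110.5 and 98.1 CPM in Ha, 221, 16.1 and 14.4 in Hb, 726, 115 and 39.3 in La, and 364, 31.7 and 19.6 in Lb. The blood sums overlapped in LC boars, at 69.9, 23.9 and 24.2 CPM in La and 10.9, 15.3 and 32.5 in Lb. Of the 2 blood markers 0 were called from La to Lb. The 11 spermatogonial markers, led by DDX4, had mean sums of 346, 831, 225 and 665 CPM in Ha, Hb, La and Lb. That rise was led by DDX4, which changed by 4.79 in Ha vs Hb and 4.91 from La to Lb on the log2 scale, while 6 of the 11 were called lower and 3 higher in Ha vs Hb (median -1.01) and 5 lower and 4 higher from La to Lb (median -0.53). Of the epididymal markers LCN5 had under 10 counts in every library, and the adrenal-like markers, led by MRAP, had mean sums of 21.9, 3.62, 33.0 and 8.33 CPM in Ha, Hb, La and Lb. Of the 8 spermatocyte markers, 4 were called lower in La than in Ha, against 7.62% of all mRNAs called in either direction. There 1 of 11 spermatogonial and 1 of 2 blood markers were also lower, and 1 of 7 Leydig markers was higher. Of the 10 peritubular and stromal markers 0 were called in Ha vs La, while 8 passed an unadjusted p under 0.05. The part of these cell types in the changes with age or the breed differences of AMH, INHA, INHBA, INHBB, AMHR2 and FSHR was not tested.

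Relative to the geometric mean of the 5 Sertoli markers, AMH still fell with age, and the other genes divided. That mean changed by -1.16 in Ha vs Hb, -0.62 from La to Lb, 0.07 in Ha vs La and 0.61 between Hb and Lb on the log2 scale. With 3 boars against 3, a two-sided exact permutation test cannot give p under 0.1. The log2 ratio of AMH to the markers changed by -3.80 in Ha vs Hb and by -6.09 from La to Lb, and that of AMHR2 by -2.49 and -3.29, with no overlap (exact permutation p = 0.1 for each). The ratio of INHA changed by -0.84 in Ha vs Hb and -2.58 from La to Lb, and that of INHBB by -0.75 and -1.07, again with no overlap (exact permutation p = 0.1). The ratio of INHBA overlapped between Ha and Hb (-0.47, exact permutation p = 0.4) and did not between La and Lb (-2.78, p = 0.1). The ratio of FSHR was higher in Hb than in Ha by 0.94 and lower in Lb than in La by -0.58, both with no overlap (exact permutation p = 0.1).

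When the libraries were scaled to these markers before the edgeR test, INHA, INHBA and INHBB were no longer called in Ha vs Hb (log2 fold changes -0.87, -0.41 and -0.74), and neither was FSHR from La to Lb (-0.57). For INHA, INHBB and FSHR the adjusted p stayed under 0.05 and the threshold on fold was missed. GATA4, the marker with the lowest log2 fold change of the 5 in both breeds, weighs on this scale: with it left out, an alternative chosen after seeing the data, the log2 ratio to the markers was -1.11 for INHA, -1.01 for INHBB and -0.73 for INHBA in Ha vs Hb, and -0.81 for FSHR from La to Lb. ACVR1B was called higher in Hb than in Ha at 1.69 when scaled to the 5 markers. That scaling moved the median over all mRNAs in Ha vs Hb from -0.02 to 1.14. In Ha vs La the 4 genes called, AMH, INHA, INHBA and FSHR, were also called with this scaling, at 1.91, 1.45, 2.30 and 1.17. The marker mean differed by only 0.07 between Ha and La, so this scaling could move those values little.

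Genes with the levels most like those of AMH, INHA and FSHR were sought among 15123 genes by Pearson's r over the 12 libraries, which fall into 2 clusters by age, so r describes likeness and was not tested. For AMH they were CHST3 (r = 0.993), SCG5 (0.992) and BMF (0.99). For INHA they were SMOC1 (0.985), ZNF704 (0.985) and WNT6 (0.982). For FSHR they were ZNF385D (0.98), SERPINA5 (0.968) and NR5A2 (0.954). SMOC1, like INHA, was highest in La, with mean levels of 27.7 CPM in Ha, 5.30 in Hb, 80.2 in La and 7.29 in Lb.

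The other genes of these pathways were followed as lists. Over all mRNAs 51.4% were called in either direction and 23.2% lower in Ha vs Hb, and 47.6% and 20.1% from La to Lb, and the lists were not tested for a difference from those shares. Of 12 further ligands, binding proteins and co-receptors, 7 could be tested, and 4 were lower in Ha vs Hb and 3 from La to Lb, with median log2 fold changes of -1.15 and -0.54 against -0.02 and 0.01 over all mRNAs tested. Scaled to Sertoli markers, 1 was called in each of these comparisons. TGFBR3, the co-receptor betaglycan through which inhibin blocks activin receptors, fell by 1.56 in Ha vs Hb and by 2.16 from La to Lb on the log2 scale. BAMBI, a decoy receptor of this family, fell by 1.59 in La vs Lb and was higher in La than in Ha by 1.10 ± 0.17 (edgeR adjusted p = 0.0047). That call was lost without Ha1, at 0.96, and with limma on log2(FPKM + 1), at 0.99. FSTL1, a secreted relative of FST, was 438, 402 and 440 CPM in Ha, 137, 52.6 and 46.2 in Hb, 474, 385 and 456 in La, and 330, 391 and 382 in Lb. Only the Hb libraries were low, with a log2 fold change of -2.44 ± 0.42 in Ha vs Hb (adjusted p = 0.00149) and 2.28 ± 0.39 in Hb vs Lb (adjusted p = 0.0231). That last call was lost without Hb3 or any single Lb library and with the replicate number as a block, with adjusted p up to 0.086 over the alternatives, while the log2 fold change stayed between 2.02 and 2.46 in those. Of the 10 peritubular and stromal markers, 5 were also called higher in Hb vs Lb (COL3A1 at 3.86), and their part in the result for FSTL1 was not tested.

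Of the 5 receptors shared with AMH and activin, 1 was called in each age comparison, ACVR1, a type I receptor of AMH, which fell by 2.05 in Ha vs Hb and by 1.71 from La to Lb on the log2 scale. The medians of the 5 were -0.41 and -0.38. Scaled to Sertoli markers, 2 were called in Ha vs Hb, ACVR1 not among them, and 3 from La to Lb. On that scale 8608 of 16548 mRNAs were called higher in Hb and 1075 lower. In Lb, 6460 of 16637 mRNAs were called higher and 1592 lower, and the list was not tested against these shares. The SMAD proteins carry the signal of AMH and activin receptors to the nucleus. Of these 8, 3 were lower in Ha vs Hb and 5 from La to Lb, with medians of -0.87 and -1.24. With scaling to Sertoli markers 1 was called in Ha vs Hb and 3 from La to Lb, while limma on log2(FPKM + 1) called 6 in each. SMAD3, which is activated by activin receptors, fell by 2.74 and 2.63. SMAD1, which is activated by AMH receptors, fell by 1.18 in Ha vs Hb and by 0.99 from La to Lb, just under the threshold on fold, and scaled to Sertoli markers its change in Ha vs Hb was -0.020. The inhibitory SMAD6 was 5.64, 5.66 and 6.79 CPM in Ha, 2.84, 3.44 and 2.90 in Hb, 11.497, 12.9 and 13.1 in La, and 2.27, 3.11 and 2.67 in Lb. SMAD6 and SMAD7, both inhibitory, were higher in La than in Ha by 1.05 ± 0.16 (edgeR adjusted p = 0.00451) and 1.07 ± 0.17 (adjusted p = 0.00514). These values lay just past the threshold on fold, and both calls were lost with limma on log2(FPKM + 1), at 0.54 and 0.89, on log2(FPKM + 0.1), at 0.94 and 0.99, and with scaling to Sertoli markers, at 0.98 and 0.996. In each of these the adjusted p stayed under 0.05 and the threshold on fold was missed. That of SMAD7 was also lost without La2, at 0.93.

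Of 15 genes of FSH receptor signalling, 6 were called in Ha vs Hb (1 higher, 5 lower) and 4 from La to Lb (1 higher, 3 lower). The higher gene was PRKAR2A, a regulatory subunit of protein kinase A, at 3.59 and 2.62 on the log2 scale, while PRKAR2B fell by 2.02 and 2.36. ARRB1, which uncouples receptors from G proteins, fell by 2.001 and 1.53, and GNAS, the stimulatory G protein, by 1.34 and 1.06. The call of GNAS from La to Lb was lost without Lb1, at -0.92, and scaled to Sertoli markers its changes were -0.18 and -0.45. The adenylate cyclase ADCY3 was 9.90, 4.98 and 12.0 CPM in Ha and between 1.18 and 3.84 CPM in the other 9 libraries, and was lower in La than in Ha by -1.71 ± 0.34 (log2, edgeR adjusted p = 0.0118). That call was lost without La2, at -1.59 (adjusted p = 0.0513, the highest of the alternatives), and with limma on log2(FPKM + 1), at -0.76.

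Of 9 regulators of AMH transcription, 5 were lower in Ha vs Hb, and 4 were lower and 1 higher from La to Lb, with medians of -1.31 and -0.77. Scaled to Sertoli markers, 3 were called in Ha vs Hb. Of the 9, SOX9, WT1 and GATA4 are also markers that set this scale, so their values on it are partly fixed by it. GATA4 and NR5A1, activators of AMH, fell by 2.19 and 2.09 in Ha vs Hb and by 1.48 and 1.38 from La to Lb on the log2 scale. NR0B1, which opposes NR5A1, was 9.25, 10.001 and 7.11 CPM in Ha, 7.42, 6.78 and 5.61 in Hb, 4.79, 3.47 and 3.18 in La, and 14.6, 11.06 and 10.5 in Lb. NR0B1 was lower in La than in Ha by -1.21 ± 0.23 (edgeR adjusted p = 0.0105) and rose by 1.68 ± 0.24 in La vs Lb (adjusted p = 0.000345). The first of these calls was lost with limma on log2(FPKM + 1), at -0.94.

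Scaled to Sertoli markers, further list genes named above lost a call with age. In Ha vs Hb these were TGFBR3 (-0.42), ACVR1 (-0.88), SMAD7 (-0.14, from -1.33), PRKAR2B (-0.82), ARRB1 (-0.84), ADCY3 (-0.70, from -1.88) and NR5A1 (-0.91), and from La to Lb they were BAMBI (-0.99), ARRB1 (-0.93) and NR5A1 (-0.78), all on the log2 scale. The call of ADCY3 in Ha vs Hb was also lost with limma on log2(FPKM + 1), filtered or not, at -0.91. GATA4 is itself among the markers that set this scale, so its value on it (-0.88 from La to Lb, not called) is lessened by its own fall.

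In the lncRNA table, 3 transcripts had positions within 10 kb of these genes, and a further transcript is paired with the assembled INHBA row in the study's list of lncRNA and mRNA neighbours. That transcript, MSTRG.23657.1, has 2 exons on the plus strand of chromosome 18 from 52884673 to 52889596. Its counts were 28, 26 and 28 in Ha, 5, 3 and 5 in Hb, 45, 50 and 46 in La, and 10, 4 and 11 in Lb, so it fell with age as INHBA did, with no overlap. It was called in both age comparisons, at -2.08 ± 0.50 (edgeR adjusted p = 0.00931) and -2.33 ± 0.52 (adjusted p = 0.0049) on the log2 scale, where 55.1% and 57.7% of lncRNAs were called in either direction. In Ha vs La the La libraries lay above the Ha libraries, but the log2 fold change of 0.96 ± 0.32 was not called (adjusted p = 0.145).

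The transcript MSTRG.17917.5 overlaps exons of ACVR2B on the same strand, in 2 exons on chromosome 13 from 23271296 to 23275978. It had 0 counts in all 6 HZ libraries, 48.3, 139 and 186 estimated counts in La, and 0.71, 0 and 7.12 in Lb. It was called in Ha vs La (edgeR adjusted p = 0.0139), where 5.72% of lncRNAs were called in either direction, and its mean of 5.47 CPM in La was at least 46.6-fold higher than the level of 3 counts in a Ha library. It was also lower in Lb than in La (adjusted p = 0.00228). The transcript passed the filter on counts only through the La libraries in both comparisons, so these calls restate its counts. ACVR2B did not follow it between Ha and La, where its libraries overlapped, and from La to Lb ACVR2B was lower as well (-0.88 on the log2 scale, not called). Reads shared by the transcript and the gene cannot be told apart in the deposited counts. The transcripts XR_002337365.1 and XR_002337366.1, which lie 2113 bases from the reference row of INHBA, were not called in any comparison by edgeR.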

How the data were processed

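Per the submitters' processing notes, the authors used fastp 0.18.0, Bowtie2 2.2.8, HISAT2 2.1.0 and StringTie 1.3.4. The authors deposited estimated counts, not normalized and not always whole, and FPKM values scaled by length and mapped fragments. The authors computed FPKM with StringTie, and the tool that gave the estimated counts is not named in the sources used here. The authors also deposited exon start and end positions of assembled lncRNAs.

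The estimated counts were rounded. For each comparison the 6 libraries were filtered with filterByExpr (minimum count 10), TMM factors were computed, and edgeR 4.0.16 (R 4.3.3) gave quasi-likelihood F tests, with Benjamini-Hochberg adjustment over all mRNAs tested. SE is the absolute log2 fold change divided by the square root of F. The interaction, (Lb - La) - (Hb - Ha), used all 12 libraries. LncRNAs were tested with the library sizes and factors of the coding-gene table. The fit was tested on simulated data. Alternatives were DESeq2 1.42.0, limma 3.58.1 on log2(FPKM + 1) and log2(FPKM + 0.1) with a mean FPKM of at least 0.1, limma with no filter, RLE factors, no filter on counts, all 12 libraries fitted together, a replicate block, no threshold on fold, scaling to Sertoli markers, leaving out each library, TMM within the lncRNA table, overlap in place of 10 kb for lncRNAs, and counts per length in place of FPKM. Leaving each marker out of the Sertoli ratio, and that ratio between breeds, were added after seeing the data. Tables and figures used Python 3.11.15, numpy 2.4.6, pandas 2.3.3 and matplotlib 3.10.9.

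Lengths were worked out from count and FPKM, with the library total set by assembled lncRNAs of known length. Ratios to Sertoli markers used genes with at least 10 counts in every library. In the marker lists only CYP11B1 and LCN8 had no row. Genes named are all 10 symbols, in each pathway list up to 2 called genes in each direction with the smallest adjusted p in each age comparison and those called between breeds or in the interaction, the 3 most like AMH, INHA and FSHR by Pearson's r (log2 CPM, prior count 2), and the most abundant of each marker list; DHH, ACTA2, MSTRG.23657.1 and the other marker genes were named beyond this rule after their values were seen. The genes and lists were chosen with earlier results of these data known. Coordinates of genes are from RefSeq.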

Additional observations from a re-analysis of the deposited data

Results flagged for a closer look

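The test of interaction (edgeR) called 1 of the 11 rows, INHBA, and 4 of the 49 pathway genes, against 5.14% of 17332 mRNAs in either direction. Pathway genes were named in part because this test called them, so the number named is not a result. For INHBA the change in LC boars minus that in HZ boars was -1.76 ± 0.33 on the log2 scale (adjusted p = 0.0124), and the La libraries were high. For SMAD6 it was -1.24 ± 0.29 (adjusted p = 0.0274), with La also the high group. That call was lost in 10 of 21 alternatives, among them limma on FPKM and leaving out Ha1, Ha2, Hb3, La2, La3, Lb1 or Lb3, with adjusted p up to 0.0873. Without each of those libraries the value stayed between -1.13 and -1.25. For NR0B1 it was 2.07 ± 0.33 (adjusted p = 0.0074). For FSTL1 it was 2.19 ± 0.45 (adjusted p = 0.0182), with the Hb libraries low. For DMRT1, a regulator of AMH transcription, it was 1.13 ± 0.22 (adjusted p = 0.0154), with levels of 81.6, 82.5 and 57.2 CPM in Ha, 40.0, 51.3 and 42.1 in Hb, 41.2, 47.4 and 42.4 in La, and 62.2, 52.8 and 58.1 in Lb. The calls of FSTL1 and DMRT1 were lost with scaling to Sertoli markers, at 1.59 and 0.62 with adjusted p of 0.0536 and 0.0947, the highest of their alternatives.

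Of the markers of other cell types, 5 of 10 peritubular and stromal, 1 of 5 endothelial, 1 of 5 macrophage, 2 of 11 spermatogonial and 2 of 10 spermatid markers were called. For the stromal markers ACTA2 and COL3A1 the change in LC boars minus that in HZ boars was 2.54 ± 0.25 (edgeR adjusted p = 0.00114) and 3.19 ± 0.79 (adjusted p = 0.0352), and for the spermatid marker PRM1 it was -1.83 ± 0.44 (adjusted p = 0.0322). With a threshold on fold, ACTA2 was called in all 20 alternatives, COL3A1 in 10 of 19 (2.55 to 4.65 over all of them) and PRM1 in 8 of 20 (-2.39 to -1.39), with adjusted p up to 0.00735, 0.0744 and 0.0913.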

How the results depend on the processing

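The log2 fold changes of the 11 rows were computed under 887 alternatives: 823 kept their direction and their side of the threshold, 8 lost a call, 16 gained one and 40 changed sign. The count of these rows called was within 1.5 times its value in 81 of 85 alternatives. In the interaction that count was 2 with DESeq2, 4 with scaling to Sertoli markers and 1 to 2 without single libraries. The ratios of levels per length moved by less than 1 SD in all 48. Leaving out 1 of 3 libraries cannot move a mean by 1 SD, so those alternatives could not fail this measure. Without single libraries the mean in Lb went down to 6.78 for INHA over the beta subunits and to 2.70 for AMH over AMHR2. Of the log2 fold changes of named list genes, 545 of 596 kept their call and 51 lost it. The cause was not tested for any of these changes.

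Scaled to Sertoli markers, the log2 fold change turned to 0.98 for FSHR, 0.82 for ACVR2A and 0.77 for ACVR2B in Ha vs Hb, and to 0.12 for ACVR2A from La to Lb. It turned to -0.027 for ACVR1B and -0.0059 for ACVR2A in Ha vs La, to -0.054 for AMH, -0.15 for INHA, -0.052 for INHBA and -0.38 for FSHR in Hb vs Lb, and to -0.27 for INHBB and -0.36 for FST in the interaction. With limma on log2(FPKM + 1), filtered or not, ACVR2A turned to 0.074 in Hb vs Lb and 0.043 in the interaction, the reference row of INHBA to 0.042 and FST to -0.13 in the interaction. On log2(FPKM + 0.1) ACVR2A turned to 0.087 in Hb vs Lb and 0.053 in the interaction. Without single libraries the range was -0.42 to 0.13 for FSHR in Ha vs Hb, -0.018 to 0.35 for ACVR2B, -0.20 to 0.0088 for AMHR2 and -0.057 to 0.16 for ACVR1B in Ha vs La. In Hb vs Lb it was -0.064 to 0.50 for FSHR, -0.10 to 0.093 for ACVR2A, -0.022 to 0.69 for INHA and -0.25 to 0.98 for AMH. In the interaction it was -0.29 to 1.12 for FST, -0.21 to 0.020 for ACVR2A and -0.068 to 0.46 for INHBB.

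The mRNAs called in Ha vs La numbered 1192. With limma on log2(FPKM + 1) they numbered 507, and 486 when that limma test had no filter. They numbered 3333 with no threshold on fold and 831 to 1466 without single libraries. In Hb vs Lb they numbered 628, and 1224 with DESeq2, 1258 with all 12 libraries fitted together, 364 with limma and no filter, 3368 scaled to Sertoli markers and 97 (without Lb2) to 1029 (without Hb2), with 119 without Hb3, 182 without Lb1 and 139 without Lb3. In the interaction they numbered 890, and 1380 with DESeq2, 1360 on log2(FPKM + 0.1), 2175 scaled to Sertoli markers and 437 (without Ha1) to 1242 (without Hb2). With the replicate block 154 mRNAs and 0 pathway genes were called in Hb vs Lb. Deviations from the group mean had r from -0.0222 to 0.0527 between libraries of the same number in 12 pairs, none over 0.1. The labels do not say whether boars of the same number share anything besides it.

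Of the 49 pathway genes, those called in Ha vs Hb were 30 on log2(FPKM + 0.1) and 31 with no threshold on fold, and with no threshold 33 were called from La to Lb. In Ha vs La they were 5, and 0 with limma on log2(FPKM + 1), filtered or not, 3 on log2(FPKM + 0.1), 3 scaled to Sertoli markers, 15 with no threshold and 3 to 6 without single libraries. In Hb vs Lb they were 1, and 2 on log2(FPKM + 0.1), 3 scaled to Sertoli markers, 2 with no threshold and 0 to 4 without single libraries. In the interaction they were 4, and 7 with DESeq2, 9 scaled to Sertoli markers and 3 to 6 without single libraries. Of the lncRNAs, overlap alone left 0 called in Ha vs Hb and 1 from La to Lb. Chosen after seeing the data, leaving GATA4 out of the ratio gave -3.51 for AMHR2, -0.81 for FSHR, 0.63 for ACVR1B and -0.11 for ACVR2A from La to Lb. In HZ boars it gave -1.11 for INHA, -1.01 for INHBB, 1.43 for ACVR1B and 0.53 for ACVR2B. AMHR2 was -3.17 from La to Lb without CLDN11, INHBB -0.61 in Ha vs Hb without WT1 and 0.41 in Ha vs La without SOX9.

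Of the mRNAs called in Ha vs Hb, 54.8% were higher, against 42.7, 39.6 and 42.5% in the 3 limma alternatives and 88.9% scaled to Sertoli markers. In La vs Lb the shares were 57.7%, 47.2% on log2(FPKM + 0.1) and 80.2% scaled to the markers. In Hb vs Lb they were 68.8%, 80.0, 79.2 and 79.9% by limma and 7.33% scaled to the markers, and in the interaction 68.4% and 12.8%. That scaling moved the median of all mRNAs to 1.14, 0.615, -0.657 and -0.52 in these 4, and limma on log2(FPKM + 1) and log2(FPKM + 0.1) moved it to -0.254 and -0.443 in Ha vs Hb and to -0.147 and -0.244 from La to Lb, and the latter to 0.12 in Hb vs Lb and 0.188 in the interaction. Counts under about 10 in a library, as for FST, limit what could be tested.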

Other observations

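The implied length of the reference row of INHBA was 1752 nt (1744 to 1761 over 6 libraries), and its span on chromosome 12 is 1750 bases, so its FPKM was computed over the whole span. The implied length of the assembled row was 6819 nt (6809 to 6843 over 12 libraries), and its counts were whole in all 12 libraries. The implied length of AMHR2 ran from 1850 to 2686 nt and that of ACVR2B from 3271 to 5064 nt between libraries.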
